A study of Bos taurus with 9 samples.

Results

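LHX2, LHX8, LMO4, LDB1 and LDB2 are 5 of the 17852 genes counted in bovine oocytes at metaphase II, the stage at which an egg waits for fertilisation. They were found by matching a list of symbols to NCBI gene IDs (783763, 512385, 614212, 526472 and 617976, in that order), and reads were summed over the transcripts of each gene. The list was chosen by measured values: LHX2 and LMO4 were selected on their differences between the groups described here. The members' levels and fold changes are therefore given as a description, with errors and without a test. The groups, with 3 libraries each, were oocytes treated with microplastics and taurine (a sulfur-containing amino acid that is not built into proteins), oocytes treated with microplastics alone, and control oocytes. All were cattle oocytes labelled as female germ cells. The labels name no particle type, dose, exposure time or number of oocytes in a library. Nothing in them says whether replicate libraries stem from different animals or cultures. The p-values below thus measure the spread between these libraries, and that spread may be technical.

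A LIM domain is a zinc-binding module through which proteins hold each other. LIM-homeodomain factors such as LHX2 and LHX8 join LIM domains to a DNA-binding homeodomain. LIM-only proteins such as LMO4 lack a DNA-binding domain and act through their partners. LDB1 and LDB2 carry no LIM domain themselves: they are LIM-domain-binding adaptors, which pair with each other and link LIM proteins into complexes, and LIM-only proteins compete with LIM-homeodomain factors for them. In the mouse, LHX8 is a germ-cell factor needed for early follicles, LHX2 is best known from the forebrain, the eye and the hair follicle, and LMO4 from the nervous system and the mammary gland. An oocyte at metaphase II does not transcribe, so its messages were stored at earlier stages.

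Libraries held 21.17 to 22.74 M estimated reads and 15404 to 15988 genes with at least 1 read. The TMM factors, which scale a library for its composition, were 0.841 to 0.958 with taurine, 1.21 to 1.25 with microplastics and 0.835 to 0.972 in control, so scaling matters for each value below. The first principal component carried 46.2% of the variance. The microplastics libraries lay at 1 end of it. Taurine 3 (51.0 on this axis) lay with control 1 and control 2 (57.0 and 50.6), and control 3 (4.86) with taurine 1 and taurine 2 (-7.05 and 3.36). Values without control 3 and taurine 3 are therefore given beside the results. The 12 oocyte markers, among them BTG4, ZP2 and GDF9, summed to 79074 to 92528 CPM (counts scaled to the total of the library) with taurine, 49278 to 59894 CPM with microplastics and 89166 to 101205 CPM in control. BTG4 was the largest part of these sums. In TMM-scaled CPM it averaged 52862 ± 8964 with taurine, 19782 ± 3131 with microplastics and 59383 ± 9399 in control (SD, n = 3 each). The 16 cumulus and granulosa markers summed to 480 to 512 CPM with taurine, 510 to 646 CPM with microplastics and 427 to 595 CPM in control. Their largest part was STAR, which was called in no comparison. STAR averaged 281 ± 51.4 TMM-scaled CPM with taurine, 308 ± 54.4 with microplastics and 282 ± 86.4 in control (SD, n = 3 each). The marker sums are scaled to library totals, while the calls below use TMM. No marker in the table was at 0 in every library, although FSHR, the receptor for follicle-stimulating hormone, had no read in the microplastics and control libraries. In microplastics minus control, edgeR's quasi-likelihood test called 7 oocyte markers lower and 2 higher of 12. The 2 higher ones were NLRP5 (log2 1.01) and ZAR1 (1.00). Of 14 cumulus or granulosa markers tested, the test called 5 lower and none higher. It called 1 of 3 stromal markers higher, 1 of 4 leukocyte markers lower, the 1 erythroid marker tested lower and none of 3 endothelial markers. With taurine minus microplastics it called 6 oocyte markers higher and 2 lower, 4 cumulus or granulosa markers and the erythroid marker higher, and no stromal, endothelial or leukocyte marker. Of all 13206 genes tested, it called 9.68% higher and 14.7% lower in the first contrast, and 10.1% higher and 4.13% lower in the second. The part of these markers in the results below was not tested. In bulk RNA, fewer cells of a type and less RNA in each cell cannot be told apart.

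LHX2 transcripts were far lower in oocytes given microplastics alone than in either other group. LHX2 stood at 155, 166 and 151 TMM-scaled CPM with taurine, at 25.8, 32.0 and 27.3 CPM with microplastics, and at 179, 205 and 160.0 CPM in control. Every microplastics library was below every other library, and the taurine and control libraries overlapped. Means were 157 ± 7.93 CPM with taurine, 28.4 ± 3.25 CPM with microplastics and 181 ± 22.6 CPM in control (SD, n = 3 each). The log2 fold change was -2.68 ± 0.17 (SE) for microplastics minus control, or 6.39-fold lower with microplastics. It was 2.47 ± 0.17 for taurine minus microplastics, or 5.54-fold higher with taurine, and -0.20 ± 0.16 for taurine minus control. With control 3 and taurine 3 left out, LHX2 had -2.74, 2.49 and -0.25.

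LMO4, the LIM-only member, had the same order of groups with a somewhat larger distance. Its levels were 319, 395 and 414 CPM with taurine, 52.3, 74.4 and 56.6 CPM with microplastics, and 524, 512 and 355 CPM in control. Again the microplastics libraries lay apart from the rest, while control 3 fell among the taurine libraries. Means were 376 ± 50.4 CPM with taurine, 61.1 ± 11.7 CPM with microplastics and 464 ± 94.2 CPM in control (SD, n = 3 each). The log2 fold change was -2.92 ± 0.22 (SE) for microplastics minus control, or 7.59-fold lower with microplastics. It was 2.62 ± 0.21 for taurine minus microplastics, or 6.15-fold higher with taurine, and -0.30 ± 0.20 for taurine minus control. Leaving out control 3 and taurine 3, LMO4 had -3.07, 2.53 and -0.53. The contrasts with microplastics share the microplastics libraries, and those with control share the control libraries, so the fold changes of a gene are not independent of each other.

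**Figure D1:**
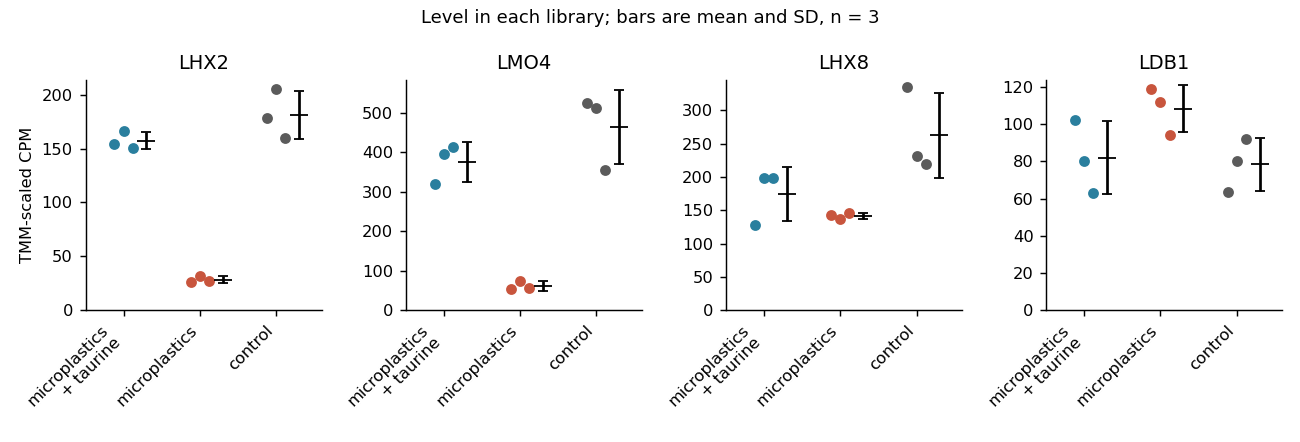
Level of LHX2, LMO4, LHX8 and LDB1 in each library in TMM-scaled CPM (vertical axes start at 0), with the mean and SD of the 3 libraries of each group beside the points. The microplastics libraries of LHX2 (25.8 to 32.0 CPM) and LMO4 (52.3 to 74.4 CPM) lie far below all others, those of LHX8 overlap the taurine libraries, and those of LDB1 lie above the control libraries.

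The place of LHX2 and LMO4 among all genes, and among genes of like length, was set in part by their selection on these differences. It is given as a description, counted in the direction of each difference. Of 13206 genes tested, 85 (0.644%) had a lower log2 fold change than LHX2 in microplastics minus control and 64 (0.485%) a lower one than LMO4. In taurine minus microplastics 87 genes stood above LHX2 and 77 above LMO4. Transcript length moved with the contrast. Sorted by the length that the deposited values imply into 5 classes, the 11276 genes with a length had a median log2 fold change of -0.37 for microplastics minus control in the shortest class (median 693 nt) and 0.27 in the longest (median 4707 nt). LHX2, at 1693 nt, was in the third class, whose median was 0.07, and LMO4, at 1120 nt, in the second, whose median was -0.09. Among 2171 genes within 0.25 log2 units of LHX2 in length, 0.322% were lower than LHX2, and among 1542 such genes for LMO4, 0.324% were lower. With the length trend taken out of each library, LHX2 had -2.69 and LMO4 -2.77 for microplastics minus control, and 2.40 and 2.46 for taurine minus microplastics.

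LHX8, the germ-cell member of the family, moved much less than LHX2 and LMO4 in both contrasts with microplastics. In taurine minus control LHX8 moved more, with log2 -0.59 against -0.20 for LHX2 and -0.30 for LMO4. It stood at 128, 198 and 199 CPM with taurine, at 142, 136 and 146 CPM with microplastics, and at 336, 232 and 220.0 CPM in control. All control libraries were above all others, control 1 stood highest, and the taurine libraries lay on both sides of the microplastics libraries. Means were 175 ± 40.7 CPM with taurine, 141 ± 4.65 CPM with microplastics and 262 ± 63.6 CPM in control (SD, n = 3 each). The log2 fold change was -0.89 ± 0.21 (SE) for microplastics minus control, 0.31 ± 0.21 for taurine minus microplastics and -0.59 ± 0.21 for taurine minus control. LHX8 had -0.99, 0.19 and -0.79 once control 3 and taurine 3 were left out. Scaled by library size only, LHX8 had -0.40 for microplastics minus control, and its small difference between taurine and microplastics turned to -0.14.

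LDB1, the adaptor, went the other way from LHX2, LMO4 and, in microplastics minus control, LHX8. Its levels were 102, 80.4 and 63.1 CPM with taurine, 119, 112 and 94.4 CPM with microplastics, and 63.3, 80.1 and 91.8 CPM in control. The microplastics libraries lay just above the control libraries and overlapped the taurine libraries. Means were 82.0 ± 19.7 CPM with taurine, 108 ± 12.6 CPM with microplastics and 78.4 ± 14.3 CPM in control (SD, n = 3 each). The log2 fold change was 0.47 ± 0.21 (SE) for microplastics minus control, -0.40 ± 0.21 for taurine minus microplastics and 0.06 ± 0.21 for taurine minus control. LDB1 had 0.61, -0.26 and 0.35 once control 3 and taurine 3 were left out, and scaled by library size only the first was 0.93. In microplastics minus control, 28.4% of all 13206 genes tested had a higher log2 fold change than LDB1. Among 1781 genes within 0.25 log2 units of LDB1 in length, the median was 0.18 and 32.6% were higher than LDB1. LDB2, the second adaptor, was at the edge of detection. It had 1 read in taurine 3, 1 read in microplastics 2 and none in the other libraries, where the limit that a count of 0 allows (3 counts) was 0.106 to 0.163 TMM-scaled CPM. LDB2 did not pass the filter on low counts and has no fold change.

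The members that passed the filter thus numbered 4 of 5, and in microplastics minus control the libraries of the groups did not overlap for all 4, 1 higher and 3 lower. Of all 13206 genes tested, 22.4% were higher and 22.5% lower without overlap in that contrast. In taurine minus microplastics the groups did not overlap for LHX2 and LMO4, both higher, and overlapped for LHX8 and LDB1, while 18.7% of all genes were higher and 17.4% lower without overlap. In taurine minus control, only LHX8 of the 4 had groups that did not overlap and was lower, beside 4.59% of all genes higher and 4.57% lower. Calls of edgeR's quasi-likelihood test, at an adjusted p under 0.05, were fewer than genes without overlap. It called 9.68% of all genes higher and 14.7% lower in microplastics minus control (3213 genes), 10.1% higher and 4.13% lower in taurine minus microplastics (1878 genes), and 0.00757%, 1 gene, in taurine minus control (5 genes by DESeq2, 753 genes at an unadjusted p under 0.05). The members were picked on these contrasts, so nothing is read from their counts.

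Levels of different genes were compared per length. On the deposited TPM scale, which corrects for transcript length, LMO4 averaged 342 ± 34.0 TPM with taurine, 80.8 ± 12.6 TPM with microplastics and 398 ± 39.2 TPM in control (SD, n = 3 each). LHX2 averaged 95.4 ± 9.53 TPM with taurine, 24.8 ± 2.06 TPM with microplastics and 104 ± 9.17 TPM in control. In contrast, LHX8 averaged 95.9 ± 21.5 TPM with taurine, 111 ± 6.80 TPM with microplastics and 136 ± 23.2 TPM in control. Of the 4 members past the filter, LDB1 was lowest with taurine and in control, with 29.7 ± 9.43 TPM with taurine, 56.0 ± 4.11 TPM with microplastics and 26.5 ± 8.08 TPM in control. Ranked by mean TPM among all 17852 genes, LMO4 stood at 498 with taurine, 1739 with microplastics and 439 in control, and LHX2 at 1388 with taurine, 3913 with microplastics and 1283 in control. With taurine and in control the order of these 4 was therefore LMO4 first, then LHX8 and LHX2, then LDB1. LHX8 and LHX2 overlapped with taurine, and in control the lowest LHX8 library lay just above the highest LHX2 library. With microplastics the order was LHX8, LMO4, LDB1 and LHX2, with no overlap between neighbours. LDB2 was far below them, at 0 to 0.02 TPM in each library. LHX8 was lower with taurine than with microplastics on the TPM scale and higher on the TMM-scaled CPM scale.

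The balance between the messages of LHX2 and LMO4, the members selected on these differences, and that of the adaptor shifted with their levels. LMO4 had 7.76, 12.6 and 17.2 TPM for each TPM of LDB1 in the taurine libraries, 1.16, 1.71 and 1.49 in the microplastics libraries and 21.8, 16.8 and 10.03 in control. The microplastics ratios lay below all others. LHX2 to LDB1 averaged 3.39 ± 0.840 with taurine, 0.446 ± 0.0600 with microplastics and 4.12 ± 1.01 in control (SD, n = 3 each), so that LHX2 outnumbered its adaptor in all libraries but those given microplastics alone. LMO4 to LHX2, in contrast, averaged 3.61 ± 0.516 with taurine, 3.24 ± 0.240 with microplastics and 3.85 ± 0.540 in control, and the libraries of the groups overlapped. LHX8 to LDB1 was 1.83, 3.84 and 5.04 with taurine, 1.88, 1.87 and 2.22 with microplastics and 8.45, 4.62 and 3.68 in control. For that ratio the taurine and microplastics libraries overlapped, and all control libraries lay above the microplastics libraries. Of the summed TPM of the 16 LIM-homeodomain and LIM-only genes in the table, LMO4 made up 48.4% ± 1.92 with taurine, 20.0% ± 2.81 with microplastics and 49.96% ± 2.97 in control. LHX2 made up 13.5% ± 1.41 with taurine, 6.15% ± 0.396 with microplastics and 13.1% ± 1.73 in control. The share of LHX8 was 13.5% ± 2.25 with taurine, 27.6% ± 1.98 with microplastics and 17.0% ± 2.26 in control, the highest with microplastics. A share also depends on the other genes of the sum: LHX8 itself averaged 111 TPM with microplastics and 136 TPM in control.

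**Figure D2:**
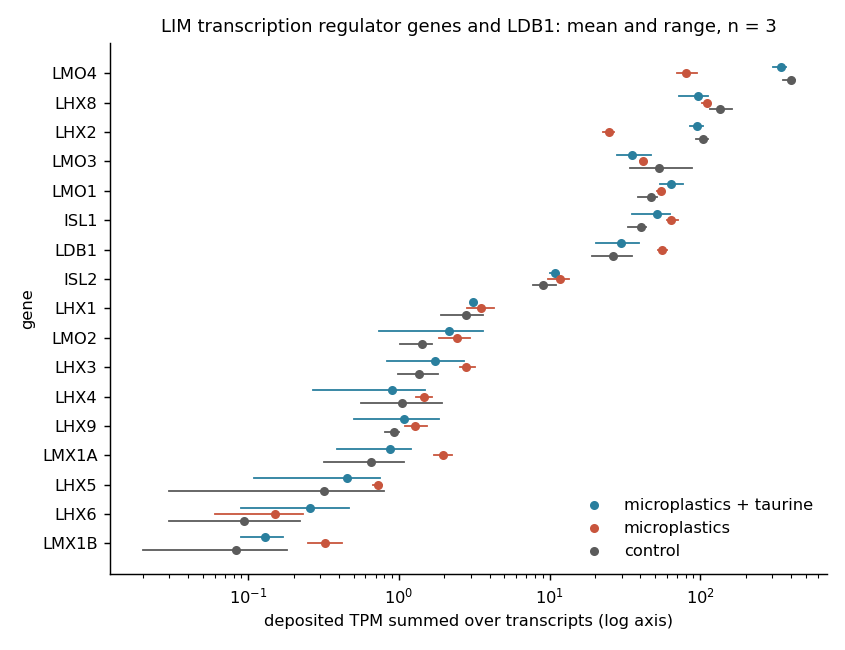
Deposited TPM, summed over transcripts, of the LIM-homeodomain and LIM-only genes and LDB1 on a log axis; points are means and lines run from the lowest to the highest of 3 libraries in each group. LMO4 and LHX2 are the genes whose microplastics libraries (means of 80.8 and 24.8 TPM) stand far left of both other groups.

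The other LIM-homeodomain genes gave no call in any comparison. They are LHX1, LHX3, LHX4, LHX5, LHX6, LHX9, ISL1, ISL2, LMX1A and LMX1B, and 9 of the 10 were tested, LHX6 being too low. Their median log2 fold change was 0.07 for microplastics minus control and -0.18 for taurine minus microplastics, beside 0.04 and -0.02 over all genes. The taurine contrast with control had a median of 0.28 for the list and 0.02 over all genes. With 1 library left out, the first of these medians ran between -0.0012 (without control 1) and 0.57 (without control 3), the second between -0.27 (without taurine 1) and 0.22 (without taurine 3), and the last between 0.16 and 0.37. ISL1, a factor of motor neurons and the pancreas, was the most abundant of them, at 68.7 ± 22.7 CPM with taurine, 57.9 ± 3.46 CPM with microplastics and 55.3 ± 6.74 CPM in control (SD, n = 3 each). ISL2 followed with 16.3 ± 0.326 CPM with taurine, 12.2 ± 2.37 CPM with microplastics and 14.1 ± 0.924 CPM in control. Most of the others were low, with 0.453 ± 0.323 TPM of LHX5 and 0.130 ± 0.0400 TPM of LMX1B with taurine. Without control 3, LHX5 (log2 2.47) and LMX1B (2.59) were called higher in microplastics minus control, and LMX1A (1.43) was called as well without control 3 and taurine 3.

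Among the LIM-only genes besides LMO4, LMO1 and LMO3 were well expressed and LMO2 was not. LMO1, known from T-cell leukaemia and neuroblastoma, had 75.0, 61.6 and 60.1 CPM with taurine, 36.5, 40.5 and 38.9 CPM with microplastics and 45.7, 56.6 and 49.0 CPM in control. On this TMM-scaled CPM scale the taurine libraries were all above the others and the microplastics libraries all below. On the deposited TPM scale the microplastics libraries of LMO1 lay above the control libraries instead. LMO1 had 54.37 to 76.39 TPM with taurine, 51.94 to 57.14 TPM with microplastics and 38.76 to 51.87 TPM in control. LMO1 rose in taurine minus microplastics by log2 0.76 ± 0.17 (SE; adjusted p = 0.0109, edgeR's quasi-likelihood test). The call was lost without microplastics 1 (0.71) and with scaling by library size only (0.34). Its log2 fold change was -0.38 ± 0.17 for microplastics minus control, which did not pass (adjusted p = 0.114, edgeR's quasi-likelihood test). LMO3 had 28.2 ± 7.15 CPM with taurine, 22.9 ± 0.300 CPM with microplastics and 46.5 ± 30.1 CPM in control, where control 1 alone reached 81.2 CPM. For microplastics minus control LMO3 had -1.02 (adjusted p = 0.0581, edgeR's quasi-likelihood test), and it was called lower without control 2 (-1.25) or control 3 (-1.26). The median of the 3 genes was -0.38 for microplastics minus control, 0.32 for taurine minus microplastics and 0.38 for taurine minus control. The first 2 medians were 0.10 and -0.08 with scaling by library size only. Leaving out 1 library gave -0.41 to -0.30 for the first, 0.08 (without taurine 1) to 0.71 (without taurine 3) for the second and -0.09 (without taurine 1) to 0.47 for the last.

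Of 7 genes for LDB cofactors and partners of LIM proteins, 1 rose and 2 fell in microplastics minus control, beside 9.68% of all genes called higher and 14.7% lower. RLIM, the ubiquitin ligase that marks LIM-domain cofactors for degradation, rose to 34.7, 35.2 and 37.0 CPM in microplastics libraries, against 11.8, 17.9 and 16.4 CPM in control. With taurine it stood at 18.2, 15.4 and 16.1 CPM, within the control range but for taurine 1. The log2 fold change of RLIM was 1.21 ± 0.21 (SE) for microplastics minus control (adjusted p = 0.0017, edgeR's quasi-likelihood test) and -1.10 ± 0.21 for taurine minus microplastics (adjusted p = 0.0043). SSBP2, a single-stranded DNA-binding protein that steadies LDB1, moved in the opposite sense. It had 10.7, 13.3 and 13.7 CPM with taurine, 5.51, 5.58 and 5.67 CPM with microplastics and 12.6, 9.88 and 12.4 CPM in control. SSBP2 fell in microplastics minus control by 1.06 on the log2 scale (adjusted p = 0.0054, edgeR's quasi-likelihood test) and rose in taurine minus microplastics by 1.17 (adjusted p = 0.0045). With scaling by library size only, the log2 fold change of SSBP2 for microplastics minus control was -0.58 and did not pass.

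CITED2, a transcriptional co-regulator, was low in both exposed groups. It had 35.3, 40.5 and 21.2 CPM with taurine, 33.5, 27.0 and 26.7 CPM with microplastics and 91.8, 56.7 and 57.4 CPM in control. All control libraries were above all libraries given microplastics, with or without taurine. CITED2 fell in microplastics minus control by 1.24 on the log2 scale (adjusted p = 0.0062, edgeR's quasi-likelihood test), and scaled by library size only the log2 fold change was -0.74, which did not pass. For taurine minus microplastics the log2 fold change was 0.16 ± 0.26 (adjusted p = 0.734), and for taurine minus control it was -1.08 ± 0.26 (adjusted p = 0.855). The last was -0.96 and was called once control 3 and taurine 3 were left out. SSBP3, SSBP4, DEAF1 and RBBP8, the further members, did not pass in any comparison, though SSBP3 (log2 0.51) was called higher with microplastics without control 3 and taurine 3. SSBP3 had 54.4 ± 5.80 CPM with taurine, 61.1 ± 3.74 CPM with microplastics and 47.1 ± 6.22 CPM in control (SD, n = 3 each). The median of the 7 genes was 0.38 for microplastics minus control, -0.03 for taurine minus microplastics and 0.12 for taurine minus control, and with 1 library left out these ran over 0.31 to 0.51, -0.11 to -0.0055 and 0.11 to 0.21.

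**Figure D3:**
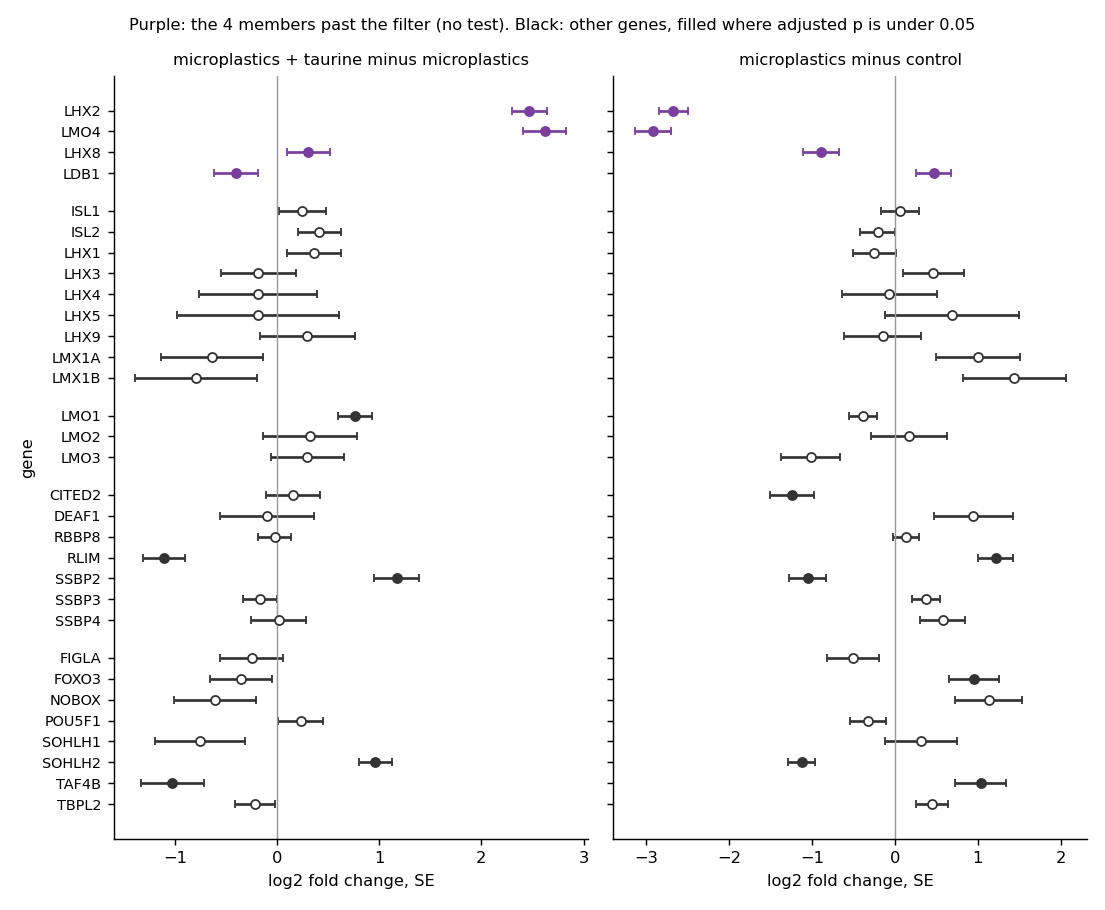
Log2 fold change with SE of the 4 members past the filter (purple, no test) and of the LIM-homeodomain, LIM-only, cofactor and oocyte regulator genes (black, filled where the adjusted p of edgeR's quasi-likelihood test is under 0.05). LHX2 and LMO4 lie at 2.47 and 2.62 in taurine minus microplastics and at -2.68 and -2.92 in microplastics minus control, outside the range of all other genes shown.

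LHX8 belongs to a wider set of transcription regulators of the oocyte. Of 8 others 2 rose, 1 fell and 5 did not pass in microplastics minus control, beside 9.68% of all genes called higher and 14.7% lower. SOHLH2, a helix-loop-helix factor needed for early follicles in the mouse, had 299, 311 and 350 CPM with taurine, 143, 161 and 190 CPM with microplastics and 384, 366 and 328 CPM in control. Its microplastics libraries were below all others. SOHLH2 fell in microplastics minus control by 1.13 on the log2 scale (adjusted p = 0.00064, edgeR's quasi-likelihood test) and rose in taurine minus microplastics by 0.96 (adjusted p = 0.0024). FOXO3, which holds primordial follicles at rest in the mouse, rose by log2 0.96 in microplastics minus control, with 41.5 ± 14.9 CPM with taurine, 53.1 ± 9.17 CPM with microplastics and 27.3 ± 10.6 CPM in control. Leaving out control 1 (0.80), control 2 (0.81), taurine 2 (0.96) or any 1 of the microplastics libraries (0.88 to 1.11) ended the call. Without control 3 it was 1.34 and called.

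TAF4B, a germ-cell subunit of the TFIID complex, rose by log2 1.04 in microplastics minus control and fell by 1.03 in taurine minus microplastics (adjusted p = 0.0306 and 0.0452, edgeR's quasi-likelihood test). It was low throughout, at 3.56 ± 0.515 CPM with taurine, 7.26 ± 2.55 CPM with microplastics and 3.54 ± 0.247 CPM in control. The rise was lost without control 1 (1.09), control 2 (0.99), microplastics 2 (0.87) or microplastics 3 (0.93). The fall was lost without any library other than microplastics 1 and control 3, with values of -0.86 to -1.15. It was also lost without control 3 and taurine 3 together (-0.96). NOBOX, a homeodomain factor of the oocyte, had 18.3 ± 8.35 CPM with taurine, 28.0 ± 4.45 CPM with microplastics and 12.8 ± 6.95 CPM in control. Its log2 fold change of 1.13 for microplastics minus control did not pass (adjusted p = 0.0616, edgeR's quasi-likelihood test) and was 1.69 and called without control 3. FIGLA, another oocyte factor, was called lower in that contrast without control 3 and taurine 3 (-0.75). The median of the list was 0.38 for microplastics minus control, -0.30 for taurine minus microplastics and -0.04 for taurine minus control. With 1 library left out, the second was as low as -0.46 (without taurine 1), and the last turned to 0.04 without control 3 and to 0.07 without taurine 3; with library size only it was 0.0095. No gene of the list was called in taurine minus control. Without control 3 and taurine 3, NOBOX (1.41) and FOXO3 (1.19) were called higher and FIGLA (-1.14) lower there.

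Outside the nucleus, LIM domains sit in adaptors of the actin cytoskeleton. Of 51 such genes listed, 50 were in the table and 37 were tested, of which 6 rose and 1 fell in microplastics minus control. Of all genes tested, 9.68% were called higher and 14.7% lower there. The genes MICAL1, MICAL2 and MICAL3, whose products oxidise actin, and their relative MICALL1 made up 4 of the 6. MICAL2, the most abundant, averaged 362 ± 41.7 CPM with taurine, 562 ± 60.0 CPM with microplastics and 354 ± 17.9 CPM in control (SD, n = 3 each), with log2 fold changes of 0.67 for microplastics minus control and -0.64 for taurine minus microplastics. MICAL1 (2.19), MICAL3 (0.67) and MICALL1 (1.31) likewise rose in microplastics minus control, and in taurine minus microplastics MICAL1 (-1.15) and MICALL1 (-1.16) fell with MICAL2. MICAL1 stayed above control with taurine, at 9.55, 11.3 and 7.49 CPM against 2.23, 4.28 and 7.24 CPM. Its log2 fold change of 1.04 for taurine minus control did not pass. Without control 3 and taurine 3, MICAL1 (1.68) and ABLIM3 (1.47) were called higher in taurine minus control. No gene of the list rose in taurine minus microplastics, where 10.1% of all genes tested were called higher and 4.13% lower. ZYX, zyxin of focal adhesions, rose by 1.00 in microplastics minus control and ABLIM1, an actin-binding LIM protein, by 0.71, and LASP1 fell by 1.41 on the log2 scale. The median of the list was 0.26 for microplastics minus control, -0.14 for taurine minus microplastics and 0.15 for taurine minus control. With 1 library left out, the first ran between 0.19 and 0.37, the second between -0.17 and -0.0032 (without taurine 1), and the last between 0.15 and 0.25.

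Several of these calls were lost when a single library was left out. In microplastics minus control the call of ZYX was lost without control 1 (0.78), control 2 (1.06), microplastics 2 (0.80) or microplastics 3 (1.02), that of ABLIM1 without control 2 (0.61) or microplastics 3 (0.62), and that of LASP1 without control 2 (-1.13) or microplastics 3 (-1.23). MICAL3 no longer passed without control 1 (0.55) or any 1 of the microplastics libraries (0.63 to 0.72). In taurine minus microplastics the call of MICAL2 was lost without microplastics 3 (-0.57) or taurine 2 (-0.58), and that of MICALL1 without microplastics 1 (-1.04), microplastics 3 (-1.23), taurine 2 (-1.11) or taurine 3 (-0.93). The fall of MICAL1 in that contrast was lost without control 2 (-1.15) and without any 1 of the microplastics and taurine libraries (-1.01 to -1.30). With the length trend removed, ABLIM1 (0.42), MICAL2 (0.40) and MICAL3 (0.38) no longer passed in microplastics minus control, nor MICAL1 (-0.99) and MICAL2 (-0.38) in taurine minus microplastics. Without control 3 and taurine 3 together, 11 genes of the list were called higher and 2 lower in microplastics minus control, where 5110 genes were called in all.

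The genes whose levels were most like those of LHX2 and LMO4 over the 9 libraries were sought among 8278 others with a symbol and a mean of at least 5 CPM, by Pearson's r of log2 CPM. LMO4 itself ranked 2 for LHX2 (r = 0.994), and LHX2 ranked 5 for LMO4. Both were selected on their differences between these groups, so these mutual ranks follow in part from that selection and are a description only. The 9 libraries fall into the microplastics libraries and the rest, and this split carries much of r: over the 6 taurine and control libraries alone LHX2 and LMO4 had r = 0.777. For LHX2 the others were MAP1LC3B, a coat protein of autophagosomes, UBE2L3, a ubiquitin-conjugating enzyme, NDUFAF4, an assembly factor of respiratory complex I, and ANAPC10, a subunit of the anaphase-promoting complex. Their r was 0.994, 0.994, 0.992 and 0.992 over 9 libraries. For LMO4 they were GGH, which trims folate polyglutamates, CC2D2A of the ciliary transition zone, TAF1A of the RNA polymerase I machinery and INTS12 of the Integrator complex, with r of 0.995, 0.995, 0.994 and 0.994. GGH also followed LMO4 within the 6 taurine and control libraries (r = 0.983), and MAP1LC3B followed LHX2 least there (r = 0.629).

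These genes shared the order of groups, not the size of the difference. CC2D2A averaged 30.0 ± 5.01 CPM with taurine, 5.48 ± 1.07 CPM with microplastics and 33.9 ± 9.63 CPM in control (SD, n = 3 each), a log2 fold change of -2.63 for microplastics minus control that was near that of LMO4. GGH had -2.07 and INTS12 -1.30 in that contrast, and the 4 genes most like LHX2 besides LMO4 had -0.98 (NDUFAF4) to -1.31 (ANAPC10). The other members did not follow LHX2 as closely. LHX8 had r = 0.661 with LHX2 over 9 libraries, and LDB1 had r = -0.692 with LHX2 and r = -0.753 with LMO4. Over the 6 taurine and control libraries these were 0.533, -0.148 and -0.732. LHX8 had r = 0.715 with LMO4 over 9 libraries. Over the 6 taurine and control libraries that r was 0.835, above the 0.777 of LHX2 with LMO4. With LDB1, LHX8 had r = -0.808 over 9 libraries and -0.702 over the 6.

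LHX8 and LDB1 each had 4 transcript models in the table, while LHX2, LMO4 and LDB2 had 1 each. The leading model of LHX8, XM_015462728, took 52.9%, 63.5% and 63.9% of the gene's reads with taurine, 59.2%, 55.1% and 53.0% with microplastics and 67.8%, 68.4% and 63.6% in control. The microplastics libraries were below the control libraries and overlapped the taurine libraries. The difference, microplastics minus control, was -10.9 percentage points, with an exact two-sided permutation p of 0.1, the smallest that 3 against 3 libraries can give (adjusted p = 0.48 over 24 such tests). The second model, XM_015462727, took 17.3% ± 1.07 with taurine, 19.5% ± 0.822 with microplastics and 14.1% ± 0.490 in control (SD, n = 3 each). LDB1 was divided mainly between XM_015469585, with 67.0% ± 6.77 with taurine, 62.7% ± 4.37 with microplastics and 68.2% ± 5.73 in control, and XM_015469586, with 31.0% ± 5.06 with taurine, 35.0% ± 4.18 with microplastics and 31.1% ± 5.89 in control. None of the 24 share tests passed after adjustment. None could have, since a p of 0.1 is the smallest possible here, so these tests decide nothing about the shares. The models of a gene overlap in sequence, so reads assigned to 1 of them are an estimate of the program that the authors used.

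**Figure D4:**
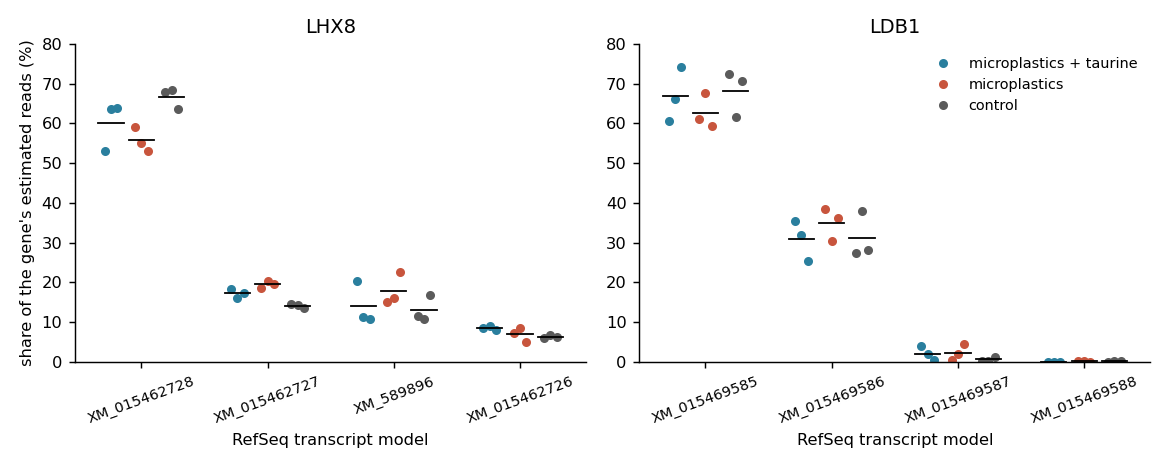
Share of a gene's estimated reads assigned to each of its 4 RefSeq transcript models, in percent, for LHX8 and LDB1; points are libraries and bars are group means. The leading LHX8 model has its microplastics libraries (53.0 to 59.2%) below its control libraries (63.6 to 68.4%), and the LDB1 shares of the 3 groups overlap.

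Both protein-coding neighbours of LHX2 in the RefSeq order differed less than LHX2 in both contrasts with microplastics. Because LHX2 was selected on these differences, nearly any gene differs less, and this is a description only. DENND1A, beside LHX2 and a regulator of the Rab35 GTPase, had 73.0 ± 10.6 CPM with taurine, 52.4 ± 7.77 CPM with microplastics and 92.4 ± 14.1 CPM in control (SD, n = 3 each). It fell in microplastics minus control by 0.82 on the log2 scale (adjusted p = 0.0101, edgeR's quasi-likelihood test). NEK6, on the other side of LHX2, was low, at 3.16 ± 1.82 CPM with taurine, 3.19 ± 0.213 CPM with microplastics and 4.79 ± 1.72 CPM in control, and did not pass. HS2ST1, beside LMO4, was low as well, at 1.89 ± 0.211 CPM with taurine, 3.12 ± 1.14 CPM with microplastics and 2.16 ± 0.928 CPM in control, and did not pass. PPRC1, beside LDB1, had 6.32 ± 1.03 CPM with taurine, 10.7 ± 0.594 CPM with microplastics and 7.52 ± 0.343 CPM in control, and it fell in taurine minus microplastics by 0.76 on the log2 scale (adjusted p = 0.0390, edgeR's quasi-likelihood test), where LDB1 had -0.40. HPS6, on the other side of LDB1, was scarce and scattered, at 1.47 ± 2.45 CPM with taurine, 1.75 ± 2.22 CPM with microplastics and 0.404 ± 0.566 CPM in control, and its log2 fold change of 2.10 ± 1.57 (SE) for microplastics minus control did not pass (adjusted p = 0.349, edgeR's quasi-likelihood test). SLC44A5, beside LHX8, had 37.0 ± 11.9 CPM with taurine, 38.9 ± 1.90 CPM with microplastics and 36.2 ± 6.46 CPM in control, and did not pass in any comparison. A long non-coding RNA, LOC132346633, overlaps LHX2 in the RefSeq table and was not analysed here. Whether reads were counted by strand is not given in the sources used here, so reads of that RNA and of LHX2 could not be told apart.

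**Figure D5:**
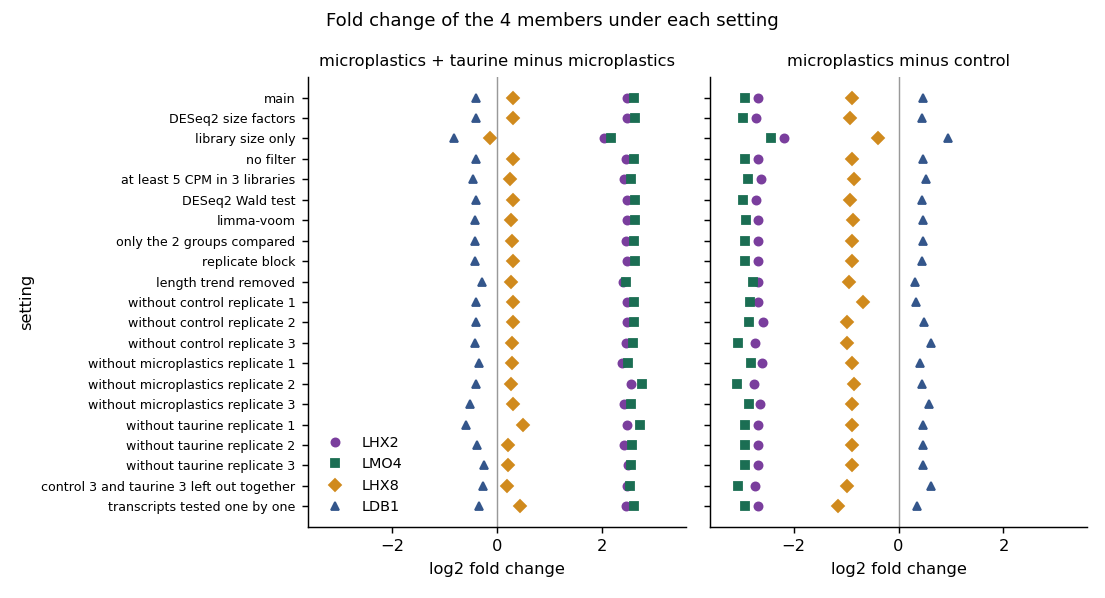
Log2 fold change of the 4 members as reported (top) and under 20 alternatives, for taurine minus microplastics and microplastics minus control. LHX2 and LMO4 stay at or below -2.19 and at or above 2.04 under all of them, LHX8 changes sign once, in taurine minus microplastics with scaling by library size only (-0.14), and LDB1 keeps its sign.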

How the data were processed

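Total RNA of the oocytes was extracted with TRIzol and made into libraries by the sequencing provider's protocol, per the labels' protocols. The aligner, the counting program and the genome build were not given in the sources used here. Per the file headers the authors deposited, for 22590 transcripts, estimated counts that are not normalised, FPKM, TPM, and a signal of counts scaled by 1 factor per library with group means, which was not used here. FPKM served only for the transcript length it implies with the counts.

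Summing a gene's transcripts gave 17852 genes, whose estimated counts were rounded to whole numbers. A RefSeq gene table (ARS-UCD2.0, used for names and neighbours) gave symbols to 16995 genes (95.2%). Genes were tested with edgeR 4.0.16 in R 4.3.3: TMM, the package's filter (minimum count 10, total 15), a robust quasi-likelihood fit of all 9 libraries with 1 coefficient for each group, and Benjamini-Hochberg adjustment over 13206 genes. Calls are genes with an adjusted p under 0.05. CPM are TMM-scaled unless said otherwise, and log2 CPM used a prior count of 2. The limit given for LDB2 covers counting error only, while each SD and SE includes the spread between libraries. Named genes are the members, the called genes of each list (or the 2 most abundant where none was called) and the 5 most like LHX2 and LMO4; genes called only in an alternative, the neighbours and a few examples were added after their values were seen. The members and lists were chosen with earlier results of these data known. Replicates of a group differed beyond sampling noise in all pairs. Alternatives used DESeq2 1.42.0 and limma 3.58.1 besides other filters, scalings, a length correction, transcripts, and left-out libraries.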

Additional observations from a re-analysis of the deposited data

How the results depend on the processing

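Directions of the members held under the 20 alternatives in both contrasts with microplastics, except for LHX8 in taurine minus microplastics. With scaling by library size only, LHX2 had -2.19 for microplastics minus control and 2.04 for taurine minus microplastics, LMO4 -2.43 and 2.18, LHX8 -0.40 and -0.14, and LDB1 0.93 and -0.82 (log2). That scaling moved the median of all genes to 0.52 and -0.45, called 4880 and 3080 genes, and made 82.0% and 19.4% of the calls higher ones, against 39.8% and 71.0% with TMM. LHX8's leading transcript alone had -1.15 for microplastics minus control. Without 1 library, calls ranged over 1715 to 4151 genes in microplastics minus control, 888 to 2146 in taurine minus microplastics and 0 to 2 in taurine minus control. Without control 3 and taurine 3 they were 5110 (51.1% higher) and 783 for the first and last. Taurine minus control gave 0 calls with limma-voom, with only genes at 5 CPM or more in 3 libraries and with only the 2 groups fitted, 5 with DESeq2 and 4 by transcript. The labels do not say whether replicate numbers pair the libraries. Correlations of same-numbered libraries ran from -0.44 to 0.26. They cannot decide this, since differently numbered libraries were not compared. With the replicate number as a block, LHX2 had -2.67 and LMO4 -2.93 for microplastics minus control, calls were 2417, 1293 and 0, and the calls of TAF4B (0.99 and -0.99), FOXO3 (0.98) and MICAL1 in taurine minus microplastics (-1.16) were lost. By transcript the calls of TAF4B, FOXO3 and MICAL3 in microplastics minus control and of TAF4B, MICAL1 and MICAL2 in taurine minus microplastics were lost, and with library size only that of LASP1 (-0.90). TAF4B in taurine minus microplastics also did not pass with no filter, limma-voom, only the 2 groups or the length trend removed (-0.96 to -1.04). The causes were not tested. The 21.17 to 22.74 M reads of a library limit LDB2 and the scarce LIM-homeodomain genes, and 3 libraries a group limit every error.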
